A study of Homo sapiens with 24 samples.

Results

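The response of EVI1-WT cells to hydrogen peroxide (H2O2) was examined in 6 of the 24 samples of the series. The members were chosen by their labels alone, as the 3 HEK293 samples transfected with EVI1 WT and given 150 μM H2O2 for 8 h and the 3 EVI1 WT samples of the same batches that were left untreated. HEK293 is an established human embryonic kidney cell line. EVI1-WT stands for unmutated EVI1 expressed from a pCMV plasmid with a flag tag, EVI1-AQA for the same plasmid with an SQS motif near the carboxy-terminus changed to AQA, and Empty Vector for the plasmid without EVI1. Transfection was transient, so that each culture can hold cells with and without the plasmid. The remaining 18 samples comprised both treatments in Empty Vector, EVI1-AQA and untransfected cells. Batch 1, 2 and 3 each held 1 sample of all 8 groups, and differences were therefore taken within batches. Nothing in the labels says whether the batches were separate cultures, and p-values then measure the spread between these samples only.

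H2O2 oxidizes protein thiols and damages DNA. Cells are known to answer with peroxide-removing enzymes, with short-lived immediate early transcripts such as ATF3 and MCL1, with the p53 pathway, and with stress responses that slow protein synthesis. EVI1, a zinc finger transcription factor and an oncogene in myeloid leukaemia, is silent in most mature blood cells, and the study asked how genotoxic stress acts on transcription in cells that carry it.

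Expression values were available for 11579 transcripts on a log2 scale in which the mean of each transcript over the 8 samples of a batch was 0. They therefore give differences between samples and no absolute level, and a difference of 1 is a doubling. The number of reads behind a value is unknown, and neither a detection limit nor the identity of the cells by their marker genes could be assessed. Genes are named only from the 1131 rows whose identifier lies on chromosome 1 of GRCh38. There, 50.7% of coding genes but 2.39% of other genes carried a row, whereas on chromosomes 2 to 22 it was 15.7% to 34.5% of coding genes and 11.6% to 19% of other genes, with the widest gap on chromosome 21 (34.5% and 17.8%), and the labels of those rows were not used. Of the 12 blood cell markers listed for chromosome 1, 0 had a row. In RNA from whole cultures, fewer cells of a kind and less RNA per cell cannot be told apart.

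A library check preceded the comparisons. In 1 row, chosen after its values were seen and labelled with a gene outside chromosome 1, the lowest untreated sample with EVI1 exceeded the highest untreated sample without it by 4.25. In this row, untreated EVI1-WT samples had values of 3.82, 3.98 and 3.13 in batches 1 to 3, and the samples labelled EVI1-WT with H2O2 had 4.91, -4.38 and 3.27. The replicate 2 library thus went against its label. Of the samples labelled Empty Vector with H2O2, replicate 2 stood at 4.36 while replicates 1 and 3 were at -3.48 and -2.17, and replicate 1 of EVI1-AQA with H2O2 stood at -2.60. All libraries kept their labels below, values are given for each batch, and batch 2 refers to the library labelled EVI1-WT. The response averaged over EVI1-WT and Empty Vector cells is given beside them, since its value, though not its error, is the same if the 2 replicate 2 libraries carried each other's label.

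After H2O2, 87 of the 1131 chromosome 1 rows rose in EVI1-WT cells and 65 fell at an unadjusted limma p under 0.05, with the batch as a block. This was 7.69% and 5.75% of the rows, beside 6.23% and 5.74% of all 11579 transcripts, or 13.4% and 12% with both directions together. Among the transcripts that rose were those of the RNA helicase DDX20, the first by p, and of the secreted matricellular protein CYR61, and among those that fell were the receptor phosphatase PTPRF and the Notch target HES5. After Benjamini-Hochberg adjustment over all transcripts by limma, 4 passed (0.0345%), of which 1 was on chromosome 1 (0.0884%). In a fit without the batch block, which takes no account of the centring within batches, 55 passed, of which 8 were on chromosome 1. Without replicate 2 in all groups, 49 chromosome 1 rows rose, and without replicate 3, 36 fell. Without the EVI1-WT H2O2 replicate 2 library alone, 72 rose and 53 fell, and 0 transcripts passed the adjusted threshold by limma (561 rose and 581 fell at an unadjusted p under 0.05).

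DDX20, the gene of an RNA helicase of the SMN complex that assembles spliceosomal ribonucleoproteins, rose most clearly. Untreated EVI1-WT samples had log2 values of -0.51, -0.63 and -0.56 in batches 1, 2 and 3, and H2O2-treated samples had 0.28, 0.21 and 0.33. The groups did not overlap, and the 3 paired differences of 0.80, 0.84 and 0.89 lay close together, batch 2 included. Standard errors here and below come from the limma fit to all 24 samples and not from the spread of the 3 pairs alone. The mean difference was 0.84 (standard error 0.14, a 1.79-fold rise, limma adjusted p = 0.0364). It was 0.88 without the EVI1-WT H2O2 replicate 2 library, where the limma adjusted p was 0.0791, and between 0.82 and 0.86 without a whole replicate, where it was between 0.210 and 0.472. DDX20 (ENSG00000064703) lies on the plus strand of chromosome 1 from 111754832 to 111775602 and overlaps INKA2 and KCND3 on the other strand. Differences of 0.68 in Empty Vector cells, 0.59 in untransfected cells and 0.63 in EVI1-AQA cells had the same sign. Each had an unadjusted limma p under 0.05, and the limma adjusted p was 0.0475, 0.125 and 0.0517. The rise of DDX20 was thus not particular to EVI1-WT cells.

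**Figure D1:**
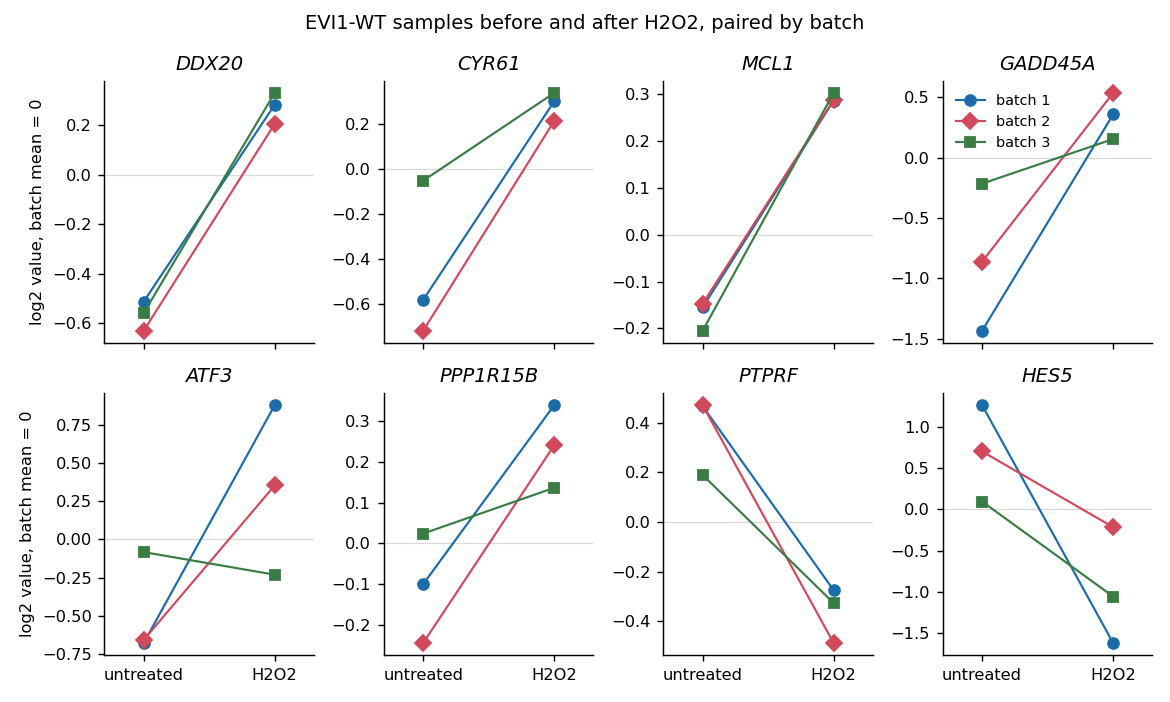
Log2 values (y axis, mean of each batch set to 0) of 8 chromosome 1 genes in the untreated and H2O2-treated EVI1-WT samples (x axis), with a line joining the 2 samples of each batch. The 3 lines of DDX20 and MCL1 run nearly parallel, while ATF3 rises in batches 1 and 2 and not in batch 3.

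Of 11 immediate early and growth-related transcripts with a row, 5 rose and 0 fell, beside 7.69% and 5.75% of all chromosome 1 rows. Their median was 0.28, beside 0.02 over all chromosome 1 rows. Members of this and the other lists were chosen with earlier results of these data known. The list counts are therefore a description and no test of an excess over all rows. CYR61, now named CCN1, encodes a matricellular protein, MCL1 an anti-apoptotic member of the BCL2 family, GADD45A a DNA damage-inducible growth arrest protein, ATF3 a stress-induced transcription factor and PPP1R15B a regulatory subunit that directs the dephosphorylation of eIF2α. The count rests partly on single libraries, since it was 2 without the EVI1-WT H2O2 replicate 2 library, 3 without replicate 1, 2 without replicate 2 and 5 without replicate 3.

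For CYR61, untreated samples had log2 values of -0.58, -0.72 and -0.05 and treated samples 0.30, 0.22 and 0.34. All treated samples lay above all untreated ones, with the smallest difference, 0.39, in batch 3 against 0.88 and 0.93 in batches 1 and 2. The mean difference was 0.74 (standard error 0.18, limma adjusted p = 0.135). The gene lies at 85580761 to 85584589 on the plus strand of chromosome 1.

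MCL1 had untreated log2 values of -0.16, -0.15 and -0.21 and treated values of 0.29, 0.29 and 0.30, so that both groups were tight and far apart. Its paired differences were 0.44, 0.43 and 0.51, with a mean of 0.46 (standard error 0.13, limma adjusted p = 0.186). The gene is annotated from 150560895 to 150579738 on the minus strand, where it overlaps ADAMTSL4-AS1 on the same strand, and reads of the 2 may not be separable.

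GADD45A was spread more widely, from -1.43 and -0.86 in untreated batches 1 and 2 to -0.22 in batch 3. Treated values were 0.36, 0.54 and 0.15. The groups did not overlap, but the difference of 0.37 in batch 3 was far smaller than 1.79 and 1.40 in batches 1 and 2 (mean 1.19, standard error 0.48, limma adjusted p = 0.330). Without the EVI1-WT H2O2 replicate 2 library, GADD45A no longer passed.

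ATF3 had untreated log2 values of -0.68, -0.66 and -0.08 and treated values of 0.88, 0.35 and -0.23. It was higher after H2O2 in batches 1 and 2, by 1.56 and 1.01, and lower by 0.15 in batch 3, and the groups overlapped (mean 0.81, standard error 0.34, limma adjusted p = 0.343). Without the EVI1-WT H2O2 replicate 2 library ATF3 no longer passed. PPP1R15B rose by 0.35 (standard error 0.15, limma adjusted p = 0.348), with differences of 0.44, 0.48 and 0.11, and did not pass without that library. In this list batch 3 gave the smallest difference of the 3 for CYR61, GADD45A, ATF3 and PPP1R15B, but the largest for MCL1.

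The 9 other transcripts named for their low p among those that rose had diverse roles. TTC4, a tetratricopeptide co-chaperone, rose by 0.98 (standard error 0.20, limma adjusted p = 0.0822), with differences of 0.61, 1.08 and 1.25 in batches 1 to 3. Untreated samples stood at -0.49, -0.68 and -0.92 and treated samples at 0.12, 0.39 and 0.33. Part of its reads may come from the MROH7-TTC4 readthrough transcript on the same strand. RABGGTB, the beta subunit of the geranylgeranyl transferase of Rab proteins, rose by 1.16 (standard error 0.27, adjusted p = 0.108). Its untreated values of -0.69, -0.63 and -0.07 lay below its treated values of 0.53, 0.24 and 1.31, and it overlaps ACADM on the same strand. KTI12, a factor in tRNA modification by the Elongator complex, rose by 0.66 (standard error 0.15, limma adjusted p of 0.1), and it lies within TXNDC12 on the same strand, so that its reads may not be separable from those of TXNDC12.

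TUFT1, the gene of tuftelin, rose by 0.73, with differences of 0.58, 0.84 and 0.79. SLC25A33, a mitochondrial pyrimidine nucleotide carrier, rose by 0.60, with 0.50, 0.41 and 0.89. ERO1LB, now ERO1B, an oxidase that forms disulfide bonds in the endoplasmic reticulum, rose by 0.52, with 0.67, 0.47 and 0.43. A common direction in each batch was required for naming, for these 3 as for the other named transcripts. TOR1AIP1, an inner nuclear membrane protein that activates torsin, rose by 0.61, PITHD1 by 0.51, and NECAP2, an adaptor of clathrin-coated vesicles, by 0.51. Limma adjusted p-values of these 6 ranged from 0.105 for TUFT1 to 0.180 for NECAP2, above the adjusted threshold.

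Among the 12 named transcripts that fell, PTPRF, a receptor-type protein tyrosine phosphatase, was first by p. Untreated samples had log2 values of 0.47, 0.47 and 0.19 and treated samples -0.27, -0.49 and -0.33. All treated samples lay below all untreated ones, and the differences were -0.74, -0.96 and -0.52 (mean -0.74, standard error 0.16, limma adjusted p = 0.0860). PTPRF lies on the plus strand of chromosome 1 from 43525187 to 43623666.

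HES5, a transcriptional repressor induced by Notch, had the largest change of the 24 named transcripts. Its untreated values of 1.27, 0.70 and 0.10 and treated values of -1.62, -0.21 and -1.06 did not overlap. The difference was -2.89 in batch 1 but -0.92 and -1.15 in batches 2 and 3 (mean -1.65, standard error 0.39, limma adjusted p = 0.108). Leaving out replicate 1 gave a mean of -1.04 and leaving out the EVI1-WT H2O2 replicate 2 library gave -2.08, both at an unadjusted limma p under 0.05. The size of the HES5 change thus rested on single batches, while a common direction in all 3 batches was required for naming. The gene lies at 2528745 to 2530263 on the minus strand.

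The other 10 transcripts that fell had various roles. CLSTN1, the membrane protein calsyntenin, fell by 0.49, and ATP2B4, a calcium pump of the plasma membrane, had differences of -1.15, -0.54 and -0.48. ROR1, a receptor of the Wnt family ligands, fell by 0.60 and LAMC1, a laminin chain of basement membranes, fell by 0.46. CREB3L4, a membrane-bound transcription factor, had nearly equal differences of -0.81, -0.91 and -0.88. MACF1, which links actin and microtubules, fell by 0.67, and CEP170, a centrosomal protein, fell by 0.45. MCOLN2, a channel of endosomes and lysosomes, fell by 0.48, CYB5RL by 0.64, and TMEM63A, a mechanically gated channel, by 0.58. The call was lost for CYB5RL without replicate 2 and for MCOLN2, ROR1 and TMEM63A without replicate 3, whereas all 24 kept it without the EVI1-WT H2O2 replicate 2 library alone.

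**Figure D2:**
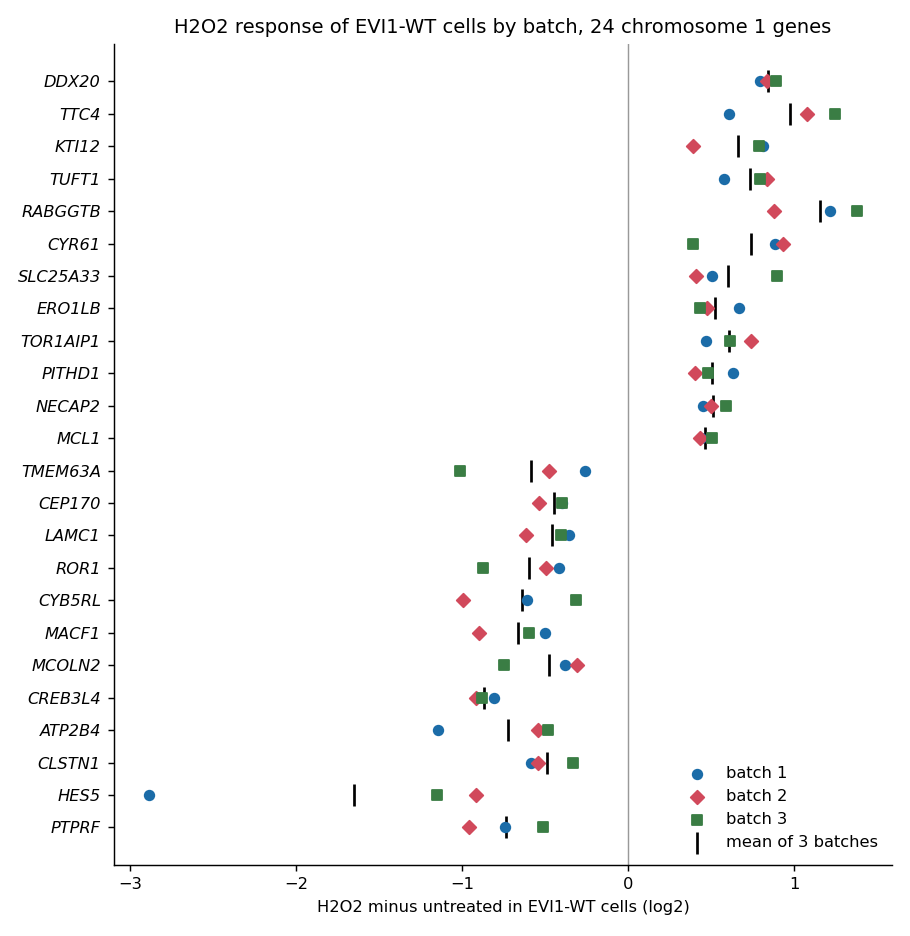
Paired differences (H2O2 minus untreated, log2, x axis) of the 24 named chromosome 1 transcripts (y axis) in EVI1-WT cells, with a symbol for each batch and a bar for the mean. Every difference has the sign of its mean, as the rule for naming required, and HES5 in batch 1 (-2.89) stands farthest out.

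Being chosen for a common direction in all 3 batches, these 24 transcripts give no measure of agreement between batches, and in each the treated and untreated samples did not overlap. Over all chromosome 1 rows, treated samples were all above the untreated ones in 152 (13.4%) and all below in 120 (10.6%). The values over all 11579 transcripts were 11% and 10.6%. As a description over the 1131 rows, the paired differences of batches 1 and 2 correlated with a Pearson r of 0.333, those of batches 1 and 3 with 0.228 and those of batches 2 and 3 with 0.232. The standard deviation of the differences over these rows was 0.380, 0.416 and 0.411 in batches 1, 2 and 3.

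Antioxidant transcripts did not pass the test in either direction. Of 17 with a row, among them peroxiredoxins, glutathione S-transferases and thioredoxin-like proteins, 0 rose and 0 fell by limma at an unadjusted p under 0.05, and the median was -0.08. Of all chromosome 1 rows, 7.69% rose and 5.75% fell. The difference was below 0 in 13 of the 17, beside 526 of the 1131 chromosome 1 rows. In 3 of the 17 all treated samples lay below all untreated ones, beside 10.6% of the chromosome 1 rows. TXNIP, an inhibitor of thioredoxin, had untreated log2 values of 0.19, 0.30 and 0.37 and treated values of -0.70, 0.17 and -0.82. Its treated samples were all below its untreated ones, but the difference of -0.13 in batch 2 stood apart from -0.88 and -1.19 in batches 1 and 3 (mean -0.73, standard error 0.46, limma adjusted p = 0.559). GSTM4, a glutathione S-transferase, had differences of -1.36, -0.13 and -0.05 (mean -0.51, limma adjusted p = 0.585), and GLRX2, a mitochondrial glutaredoxin, had 0.21, 0.39 and 0.17 (mean 0.26, limma adjusted p = 0.582). Without the EVI1-WT H2O2 replicate 2 library, 1 of the 17 fell.

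Among p53 target and pathway genes, 1 of 13 rose and 0 fell, beside 7.69% and 5.75% of all chromosome 1 rows. The median was 0.19, and the 1 that rose was GADD45A, described above. SFN, the cell cycle inhibitor 14-3-3 sigma, had discordant differences of 0.28, -1.49 and -0.69 (mean -0.63, limma adjusted p = 0.465). TP73, a p53 relative, had 0.33, 0.30 and 0.38 (mean 0.34, limma adjusted p = 0.498). In the apoptosis list, 2 of 10 rose and 0 fell, beside the same shares of all chromosome 1 rows, with a median of -0.01. They were MCL1 and BCL10, an adaptor in NF-κB signalling, which rose by 0.53 (limma adjusted p = 0.403) with differences of 0.71, 0.86 and 0.02, and which did not pass without the EVI1-WT H2O2 replicate 2 library. Of 13 members of the MAPK cascade, 0 rose and 0 fell by limma at an unadjusted p under 0.05 (median 0.04), again beside 7.69% and 5.75%. DUSP12, a dual-specificity phosphatase, was at 0.25 (limma adjusted p = 0.561).

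For chaperones and folding factors, 4 of 13 rose and 1 fell (median 0.09), beside 7.69% and 5.75% of all chromosome 1 rows. Those that rose were TOR1AIP1, the DnaJ protein DNAJB4 (0.58, limma adjusted p = 0.306), the torsin family member TOR3A (0.34, adjusted p = 0.326) and the cyclophilin PPIE (0.30, adjusted p = 0.396). DNAJC16, another DnaJ protein, fell by 0.38 (limma adjusted p = 0.385). DNAJB4 differed by 1.03 and 0.73 in batches 1 and 2 and by -0.01 in batch 3, and TOR3A by 0.59 and 0.45 in batches 1 and 3 and by -0.03 in batch 2. The list had 2 transcripts that rose and 0 that fell without the EVI1-WT H2O2 replicate 2 library, and 1 that rose without replicate 1. In the endoplasmic reticulum stress list, 3 of 13 rose and 0 fell (median 0.09), namely ERO1LB, ATF3 and PPP1R15B, with 2 left without that library and 1 without replicate 1. The vesicle fusion protein SEC22B was at 0.71 and 1.08 in batches 1 and 3 but -0.26 in batch 2 (limma adjusted p = 0.515).

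In 4 lists for protein synthesis and turnover, 3 of 24 members together were called, a share near the 13.4% of all chromosome 1 rows called in either direction. Of 5 cytosolic ribosomal proteins, 0 rose and 0 fell by limma at an unadjusted p under 0.05 (median 0.02), and their differences ran from -0.04 for RPL22 to 0.17 for RPS27. Among 8 mitochondrial ribosomal proteins, MRPL55 rose by 0.38 (limma adjusted p = 0.321) and 0 fell (median 0.07). Of 4 proteasome subunits, PSMA5, an alpha subunit of the core particle, rose by 0.33 (limma adjusted p = 0.321), with even differences of 0.34, 0.27 and 0.40, and 0 fell (median 0.07). Among the 7 rows of the list of aminoacyl-tRNA synthetases and PHGDH, IARS2, the mitochondrial isoleucyl-tRNA synthetase, fell by 0.37 (limma adjusted p = 0.276) with differences of -0.26, -0.39 and -0.45, and 0 rose (median -0.13). The calls of MRPL55, PSMA5 and IARS2 were each lost without replicate 2 or replicate 3 as a whole, that of PSMA5 also without replicate 1, but not without the EVI1-WT H2O2 replicate 2 library alone.

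The respiratory chain list had 0 of 12 transcripts rise and 0 fall by limma at an unadjusted p under 0.05 (median 0.04), with differences between -0.24 for ATPAF1 and 0.16. In the cholesterol list, LBR, a sterol reductase of the inner nuclear membrane, fell by 0.41 (limma adjusted p = 0.289), and 7 of 8 did not pass (median -0.11). Beside both lists, 7.69% of all chromosome 1 rows rose and 5.75% fell. The call of LBR was lost without replicate 2 or replicate 3.

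**Figure D3:**
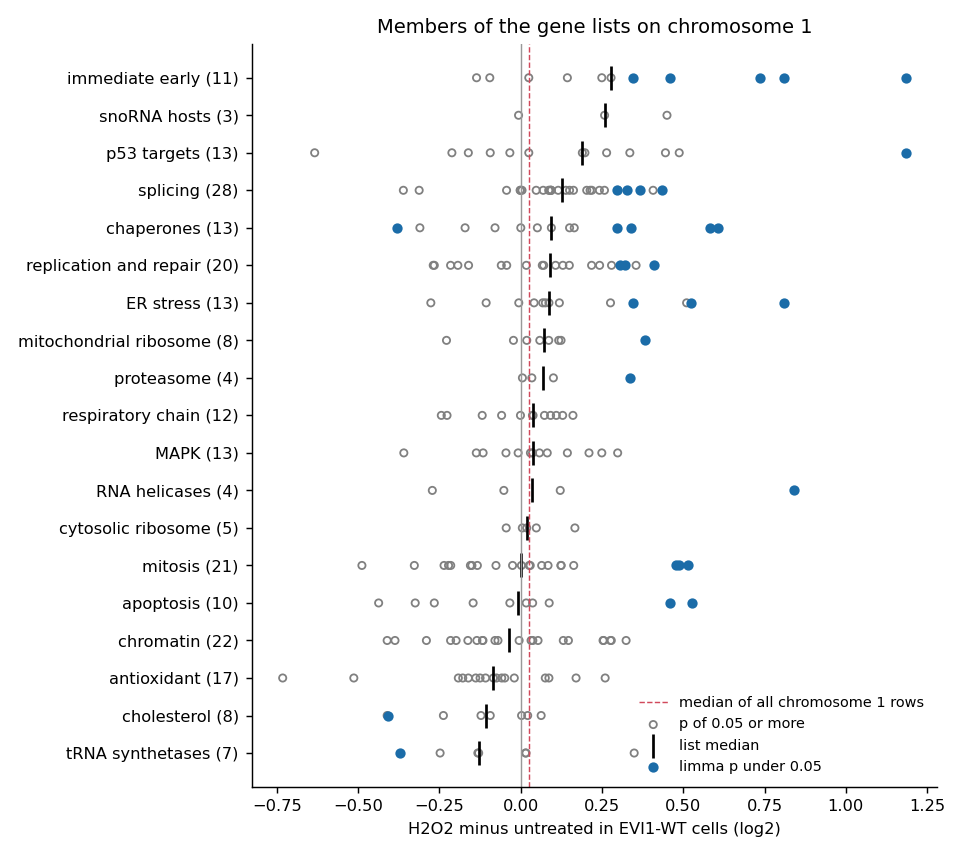
Difference between H2O2 and untreated EVI1-WT cells (log2, x axis) for each member of the 19 lists with 3 or more rows (y axis, number of rows in parentheses), with filled points at a limma p under 0.05, a bar at the list median and a dashed line at the median of all chromosome 1 rows (0.02). The immediate early list has a median of 0.28 and the snoRNA hosts 0.26, and filled points occur on both sides of 0.

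Of 21 mitosis transcripts, 3 rose and 0 fell (median 0.00), beside 7.69% and 5.75% of all chromosome 1 rows. With both directions together, the share was near the 13.4% of all chromosome 1 rows. CENPL, a centromere protein, rose by 0.49 (limma adjusted p = 0.262), CEP85, a centrosome protein, by 0.51 (adjusted p = 0.322) and NEK2, a kinase of centrosome separation, by 0.48 (adjusted p = 0.393). CENPL had differences of 0.56, 0.23 and 0.67 with samples that did not overlap, and its call was lost without replicate 1 or replicate 3. CEP85 had 0.88, 0.68 and -0.02. Without the EVI1-WT H2O2 replicate 2 library, 2 of the list rose and 2 fell. In DNA replication and repair, 3 of 20 rose and 0 fell (median 0.09), beside the same 7.69% and 5.75%, and again near 13.4% with both directions together. They were DCLRE1B, a nuclease at telomeres (0.41, limma adjusted p = 0.273), the chromatin protein POGZ (0.32, adjusted p = 0.357) and USP1, a deubiquitinase of the Fanconi pathway (0.31, adjusted p = 0.362). Without the EVI1-WT H2O2 replicate 2 library, POGZ and USP1 no longer passed, but 2 transcripts of the list rose, so that another member gained a call. Without replicate 1 or replicate 2 as a whole the list had 1 transcript that rose, with medians of -0.02 and 0.15.

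Of 28 splicing transcripts, 4 rose and 0 fell, beside 7.69% and 5.75% of all chromosome 1 rows. With both directions together, the share was likewise near the 13.4% of all chromosome 1 rows. The median was 0.13, and 23 of the 28 had a difference above 0. Over the 1131 chromosome 1 rows the median was 0.02, and 605 had a difference above 0. LSM10, a component of the U7 particle that processes histone mRNA, rose by 0.44 (limma adjusted p = 0.336), and the splicing factors PRPF38B by 0.37 (adjusted p = 0.343), SNRNP40 by 0.33 (adjusted p = 0.363) and PPIE by 0.30 (adjusted p = 0.396). PRPF38B had the most even differences, 0.33, 0.43 and 0.34. All 4 calls were lost without the EVI1-WT H2O2 replicate 2 library. Of 4 RNA helicases, DDX20 rose and the others did not pass, MOV10 at -0.27, DHX9 at 0.12 and DDX59 at -0.05. None of 22 chromatin regulators, 3 snoRNA host genes and 2 histone genes rose or fell by limma at an unadjusted p under 0.05, with medians of -0.04, 0.26 and -0.35. The snoRNA host SNHG3 had differences of 0.21, 0.55 and 0.59 (limma adjusted p = 0.541) and shares its strand and part of its span with RCC1.

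The EVI1-WT response was compared with the responses of the other cells by the difference between the 2 differences. Against Empty Vector cells, 298 of 11579 transcripts (2.57%) differed at an unadjusted limma p under 0.05, against untransfected cells 504 (4.35%) and against EVI1-AQA cells 879 (7.59%). On chromosome 1 the counts were 29 (2.56%), 47 (4.16%) and 96 (8.49%). The shares against Empty Vector and untransfected cells lay below the share of 0.05 that this threshold would pass if no transcript differed. After adjustment, limma called 0 in each of the 3, also under every alternative run. The count against EVI1-AQA cells was 509 without replicate 3 and 1190 without the 3 libraries that went against their labels. In the latter fit the smallest limma adjusted p was 0.0905. No difference between EVI1-WT and other cells was therefore detectable for a single transcript, which does not show that they responded alike.

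TTC4 was the chromosome 1 transcript with the lowest p against both controls without EVI1. Its difference of 0.98 in EVI1-WT cells stood beside 0.02 in Empty Vector, -0.32 in untransfected and 0.14 in EVI1-AQA cells. By batch, Empty Vector cells had -0.18, 0.33 and -0.08 and untransfected cells 0.25, -0.43 and -0.78, all below the EVI1-WT value of the same batch. The TTC4 response was higher by 0.95 than in Empty Vector cells (limma adjusted p = 1.00) and by 1.30 than in untransfected cells (adjusted p = 0.461), and neither passed the adjustment. For MCL1, values were 0.46, 0.42, 0.43 and 0.16 in the same order, and for RABGGTB 1.16, 1.24, 1.15 and 0.10. They were 0.74, 0.67, 0.37 and 0.36 for CYR61. PTPRF had -0.74, -0.62, -0.37 and -0.32, and HES5 had -1.65, -1.62, -1.17 and -1.14. The RABGGTB response was higher in EVI1-WT than in EVI1-AQA cells at an unadjusted limma p under 0.05 and not after adjustment.

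**Figure D4:**
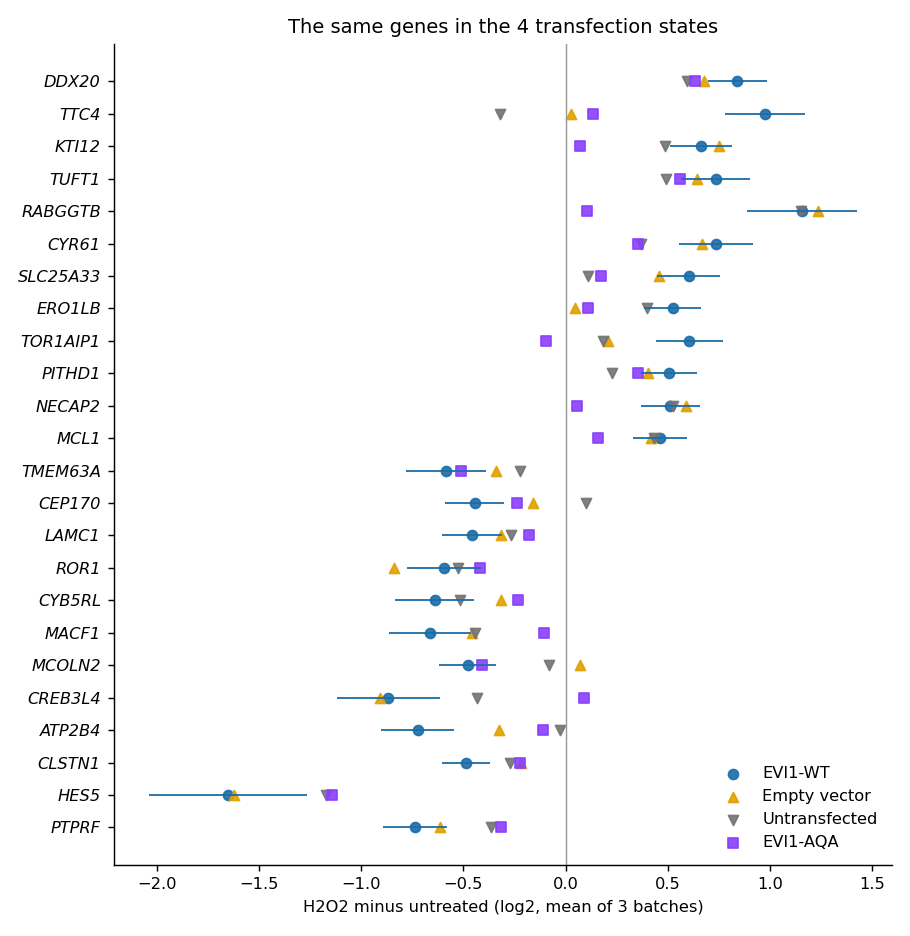
Mean difference between H2O2 and untreated samples over 3 batches (log2, x axis) of the 24 transcripts named for EVI1-WT cells (y axis) in the 4 transfection states, with a horizontal bar of 1 standard error either side for EVI1-WT only. The transcripts were chosen in EVI1-WT cells, whose points therefore tend to lie farther from 0, and TTC4 at 0.98 lies apart from the other 3 states (-0.32 to 0.14).

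The 4 states have separate samples but share batches, whose mean was set to 0. Of the 87 chromosome 1 rows that rose in EVI1-WT cells, 44 (50.6%) also rose in Empty Vector cells, where 105 did (9.28% of chromosome 1 rows), 30 (34.5%) in untransfected cells, where 98 did (8.66%), and 20 (23%) in EVI1-AQA cells, where 94 did (8.31%). As shares of the lists of those cells these were 41.9%, 30.6% and 21.3%. Of the 65 that fell, 23 (35.4%) fell in Empty Vector cells, 19 (29.2%) in untransfected and 9 (13.8%) in EVI1-AQA cells, or 28%, 27.1% and 14.5% of their 82, 70 and 62 rows that fell (7.25%, 6.19% and 5.48% of chromosome 1 rows). Within batches 1, 2 and 3, the EVI1-WT differences correlated with those of Empty Vector cells with a Pearson r of 0.491, 0.318 and 0.374 over the 1131 rows, with those of untransfected cells with 0.461, 0.0970 and 0.187, and with those of EVI1-AQA cells with 0.210, 0.274 and 0.104. These r values are a description, and the rows share libraries.

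The response averaged over EVI1-WT and Empty Vector cells rests on 6 pairs, and an exchange of the 2 replicate 2 labels would leave its differences, but not their errors and calls, the same. It gave 683 of 11579 transcripts a limma adjusted p under 0.05 (5.9%), 379 higher and 304 lower, and 78 of 1131 on chromosome 1 (6.9%), 51 higher and 27 lower. The count was 5 without replicate 1, 3 without replicate 2, 256 without replicate 3 and 150 without the 2 replicate 2 H2O2 libraries. A fit with exchanged labels was not run. Of the 12 named transcripts that rose in EVI1-WT cells, 11 had an adjusted p under 0.05 in this average, with ERO1LB at 0.0941. Of the 12 that fell, 9 did, with CEP170 at 0.0820, TMEM63A at 0.0531 and MCOLN2 at 0.228. These transcripts were selected on the EVI1-WT samples that enter the average, so the counts are not independent of the choice.

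A relation to the length of the gene on the genome was looked for after the values were seen. The 1045 coding genes of chromosome 1 were split into 4 groups of nearly equal number by span, from transcription start to end in GENCODE v44. The median EVI1-WT difference was 0.09, 0.06 and 0.04 in the 3 groups of shorter genes and -0.11 in the group spanning 68.5 kb or more. In this longest group 4 transcripts rose and 36 fell, against 21 and 6 in the shortest, 32 and 6 in the second and 23 and 14 in the third. The median of the longest group was -0.10, -0.08 and -0.11 in batches 1, 2 and 3, so that the lean was present in each. Spearman's rho between span and difference across genes was -0.260 in EVI1-WT cells, -0.236 in Empty Vector, -0.137 in untransfected and -0.141 in EVI1-AQA cells. The named transcripts that rose had a median span of 20.1 kb and those that fell 96.8 kb, HES5 (1.52 kb) and CREB3L4 (6.83 kb) being short exceptions. The part of library preparation from the 3′ end and of RNA quality in this relation was not tested.

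**Figure D5:**
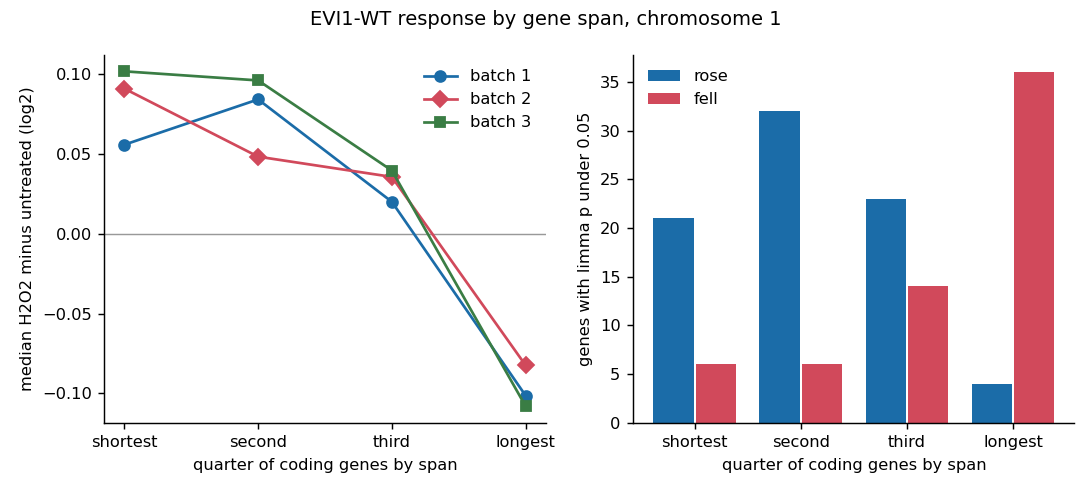
Left, median difference between H2O2 and untreated EVI1-WT samples (log2, y axis) in each of 4 groups of the 1045 coding chromosome 1 genes by span (x axis), with a line for each batch. Right, numbers of genes (y axis) that rose or fell at a limma p under 0.05 in each group, 4 and 36 in the longest.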

How the data were processed

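RNA of 24 HEK293 samples was sequenced from the 3′ end. The authors mapped reads to GRCh38 with Ensembl release 90, used Qlucore Omics Explorer (version 3.3) and a minimum FPKM of 10, and deposited log2 expression values of 11579 transcripts, whose mean is 0 within each batch of 8 samples (largest departure 4.5e-06). The aligner and counting are not given in the sources used here, and the depth is unknown. Group means and the replicate number as a block were fitted to all 24 samples with limma 3.58.1 in R 4.3.3 (14 residual degrees of freedom, 5.04 from the prior), with two-sided p-values and Benjamini-Hochberg adjustment over all transcripts. Rose and fell mean an unadjusted p under 0.05. The fit was tested on simulated data with 200 changed transcripts. Of the unchanged ones, 5% had an unadjusted limma p under 0.05 with the block and 6.51% without it. Adjusted limma calls included 7 false ones of 80 with the block and 16 of 109 without it. Other steps used Python 3.11.15, pandas 2.3.3 and matplotlib 3.10.9.

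The replicate numbers pair the samples because they equal the batch in the labels. Deviations of same-numbered samples from the EVI1-WT group means correlated with r of -0.0883, -0.101 and -0.0239, which the centring within batches makes uninformative.

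Named are 12 coding or snoRNA host transcripts of chromosome 1 for either direction, ranked by p among those with the same sign in every pair, 2 in each direction for each difference between responses, and up to 4 lowest by p in each of 21 lists. The results of 2 transcripts that this rule names are not reported here. Members and lists were chosen with earlier results of these data known. Positions are from GENCODE release 44, which holds 10892 of the identifiers. A pseudocount or a filter on low values could not be varied, as the table has no absolute levels. The smallest two-sided p of an exact permutation test of 3 against 3 samples without pairing is 0.1. With the samples paired by batch it would be larger. Alternatives were a fit without the block, median centring, quantile normalization, and fits without single replicates or libraries. Fits of the EVI1-WT samples alone were also run, with both moderation and block and with neither.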

Additional observations from a re-analysis of the deposited data

Results flagged for a closer look

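Responses to H2O2 that differed most between EVI1-WT and other cells on chromosome 1 were singled out by limma's test of the difference between 2 responses, at unadjusted p-values under 0.01, and 0 passed the adjusted threshold by limma in any of the 3 comparisons. Values are the EVI1-WT response minus the other response on the log2 scale.

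Against Empty Vector cells, TTC4 differed by 0.95 and BLZF1, a Golgi matrix protein, by 0.99, while KCNC4, a voltage-gated potassium channel, differed by -0.70 and CASP9, an initiator caspase, by -0.91. BLZF1 was higher after H2O2 in EVI1-WT cells by 0.59, 0.53 and 0.67 in batches 1 to 3, beside a mean of -0.39 in Empty Vector cells. The CASP9 value came from Empty Vector cells, which had 0.13, 1.34 and 1.15, while EVI1-WT cells had -0.13, 0.39 and -0.36. Adjusted limma p-values of these 4 were 1.00, and batch 2 holds both libraries that went against their labels.

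Against untransfected cells, TTC4 differed by 1.30, the lysophospholipid acyltransferase LPGAT1 by -0.60 and the kinase TESK2 by -0.89. The adjusted limma p was 0.461 for TTC4 and 1.00 for LPGAT1 and TESK2. TESK2 had 0.42, -0.45 and 0.04 in EVI1-WT cells beside 0.44, 0.70 and 1.55.

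Against EVI1-AQA cells, STPG1 differed by 0.77 and the adhesion receptor ADGRB2 by 1.04, while C1orf50 differed by -1.03 (limma adjusted p = 0.565) and the non-coding CTD-2090I13.2 by -1.11 (adjusted p = 0.588). STPG1 had 0.44, 0.23 and 0.53 in EVI1-WT cells beside -0.31, -0.33 and -0.49 in EVI1-AQA cells. ADGRB2 was lower after H2O2 in both, with means of -0.46 in EVI1-WT cells and between -1.72 and -1.37 in each batch of EVI1-AQA cells. C1orf50 had -0.51, -0.30 and 0.25 beside 1.18, 0.47 and 0.88. Replicate 1 of EVI1-AQA with H2O2 went against its label.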

How the results depend on the processing

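No called result changed direction, though for the 24 named transcripts the rule for naming required a common sign in every pair. Adjusted calls in EVI1-WT cells, 4 with the replicate block, were 55 without the block and 16 after quantile normalization. Fits of the EVI1-WT samples alone gave 0 with both moderation and block and 0 with neither. The count was 0 without the 3 libraries that went against their labels. Without the 2 replicate 2 H2O2 libraries of EVI1-WT and Empty Vector (chosen after seeing the data) it was also 0. It was 0 to 1 when a replicate or the EVI1-WT H2O2 replicate 2 library was left out. Adjusted calls for the average over EVI1-WT and Empty Vector went from 683 to 1109 without the block, 1108 after quantile normalization, 181 without the 3 libraries, 150 without the 2 and 3 to 481 when a replicate or that library was left out. Leaving these out gave 416 to 632 transcripts that rose and 460 to 581 that fell in EVI1-WT cells, 49 to 72 and 36 to 57 on chromosome 1, and 1750 to 2417 for the average. It gave 227 to 363 for EVI1-WT against Empty Vector, 376 to 578 against untransfected and 509 to 965 against EVI1-AQA cells. Against EVI1-AQA cells the count was 1190 without the 3 libraries. The unadjusted calls of the 24 named transcripts were kept without the block and under both scalings. TMEM63A lost its call in the fit of EVI1-WT samples alone that had neither moderation nor block. Over all alternatives, the values of single genes, those 24 included, of differences between responses and of the immediate early count kept their side of the threshold in 1035 instances, lost it in 134, gained it in 67 and moved by over 1.5 times in 5, all of the last being the immediate early count. The immediate early count was 3 without the 3 libraries and 2 without the 2. Fewer samples enter the fits with libraries left out. Without the block, the fit counts 16 residual degrees of freedom, against 14 with it, though the values are centred within batches. The cause of the other changes was not tested. Unknown depth and 3 samples per group limit the precision.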

Other observations

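Of 86 non-coding rows of chromosome 1, 7 rose and 3 fell in EVI1-WT cells at an unadjusted limma p under 0.05, near the 7.69% and 5.75% of all chromosome 1 rows, and of the 48 long non-coding RNAs among them 6 rose and 2 fell. The mitochondrial pseudogene MTATP6P1 rose by 0.91 (standard error 0.23, limma adjusted p = 0.152), with differences of 1.07, 0.59 and 1.06 in batches 1 to 3, and it can share reads with the mitochondrial genome. FOXD3-AS1, antisense to a neural crest transcription factor, rose by 0.94, with 0.74, 1.35 and 0.72, and stood at 0.39 in Empty Vector, 0.68 in untransfected and -0.12 in EVI1-AQA cells. LINC00623 rose by 0.87, with 0.62, 0.77 and 1.22, beside 0.22, 0.01 and -0.37 in those cells. ASH1L-AS1 rose by 0.86 and RP11-54O7.3 fell by 0.93. None of these passed after adjustment by limma.

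The genes of the longest group by span, described for EVI1-WT cells, had medians of -0.11 in Empty Vector, -0.06 in untransfected and -0.04 in EVI1-AQA cells, in which batch 1 stood at 0.03.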
